A study of Mus musculus with 36 samples.

Results

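NIH3T3 cells carrying an Erbb2 transgene were compared after 24 h and after 12 h of tetracycline, on 8 of the 36 dual-colour cDNA arrays of the series, 4 arrays at each time. The 8 arrays were chosen by their titles, and the untreated arrays were left out of the comparison. NIH3T3 is an established line of mouse embryo fibroblasts. Both groups are the same Erbb2-transfected line by their titles, and the hours of tetracycline are the only difference that the titles name. In the tet-off system the drug is meant to switch the transgene off, so every culture of the comparison carried the transgene and received the drug. Per the labels, channel 1 of each array held total RNA of treated cells and channel 2 held RNA of untreated Erbb2 cells. Replicates 1 and 2 carried channel 1 in the red dye Cy5 and replicates 3 and 4 carried it in the green dye Cy3. The labels do not give the promoter of the transgene, whether the line is 1 clone, when the untreated cells were harvested or whether replicates were separate cultures, so p-values measure the spread between arrays, which may be technical. The labels' protocols, which speak of organs and of a pool of control animals, conflict with the named sources. The named sources were followed.

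Values are on the log2 scale, as ratios of channel 1 and channel 2. Each array was centred on its median, and Cy3 arrays were multiplied by -1, so that a value above 0 stands for more RNA in treated than in untreated cells. That direction is assumed from the labels and is not settled by any file. Without turning, 35 of the 64 genes followed below had the opposite sign, and differences of the same sign were mostly far smaller: -0.19 for Cdk1, -0.05 for Cks2, -0.07 for Mcm7, 0.05 for Gas1, 0.06 for S100a4 and -0.49 for Egr1. Many of these genes were picked for 1 sign in both dyes after turning. An unturned fit sets the dyes against each other, so it shrinks such differences by construction. Of 20355 probes 19231 to 19290 gave a usable value on the 24 h arrays, and 18840 to 19413 on the 12 h arrays. The number of arrays limits the precision. No probe of the table is annotated to Erbb2, so the transgene itself could not be checked. A ratio carries no level, so the presence of fibroblast markers could not be checked either. Of 12 fibroblast markers 11 were tested, with a median 24 h minus 12 h difference of 0.12 on the log2 scale. Of these 11, 2 were higher and 1 lower at an unadjusted p under 0.05 (27.3%, against 9.15% of all genes). The values of the 2 times did not overlap for 36.4% of them, against 3.62% of all genes. The 4 tested markers of macrophages and leukocytes had a median of -0.13, the 6 of epithelium 0.05, the 4 of endothelium 0.11, the 3 of adipocytes -0.06 and the 4 of skeletal muscle 0.07. Of these 21 markers of other cell types 1 had an unadjusted p under 0.05.

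ERBB2 is a growth factor receptor with tyrosine kinase activity and a relative of EGFR. Active ERBB2 signals through the RAS-ERK and PI3K-AKT pathways, which switch on immediate early transcription factors such as EGR1 and, through D-type cyclins and their kinases, release E2F factors from the retinoblastoma protein. E2F factors drive the genes of DNA replication, and a later wave of genes for chromosome condensation and spindle assembly follows as cells approach mitosis. Fibroblasts that leave the cycle shut down both waves and express growth arrest genes such as Gas1.

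No probe passed the test between the times. A linear model (limma) was fitted to the 20 arrays of 1, 2, 4, 12 and 24 h with a mean per time and a dye effect per probe. With Benjamini-Hochberg adjustment over 18451 tested probes, 0 (0% of them) passed an adjusted p of 0.05. The lowest adjusted p was 0.0542. At an unadjusted p under 0.05 stood 1691 probes (9.16%), 837 higher at 24 h (4.54%) and 854 lower (4.63%). The 4 values of 24 h lay all above or all below the 4 of 12 h for 689 probes (3.73%), 349 above (1.89%) and 340 below (1.84%). The median difference was 0.01 on the log2 scale, the median absolute difference 0.16 and the median standard error 0.19. At an adjusted p under 0.10, a limit chosen after the values were seen, stood 23 probes (0.125%), 13 higher and 10 lower. Since no difference passed, all genes below are given by their values, without a call. Leaving out 1 array gave 10 calls without 24 h replicate 1, 5 without 24 h replicate 2, and 3, 1 and 2 without 12 h replicates 1, 2 and 4. A fit with a dye effect of its own for each time called 36 probes (0.195%), 17 higher and 19 lower, and the genes of that fit are named where they appear.

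Genes of mitosis and of DNA replication were mostly lower at 24 h than at 12 h (26 and 27 of 37 tested genes each below 0). Cdk1, Cks2, Tuba1b and Mcm7 were among the 12 genes named by rule as lower, the rule being the lowest p-values in each direction with the same sign in both dyes. In these bulk RNA samples, fewer cycling cells and less RNA per cell cannot be told apart. Averaged by gene, 9276 genes were tested, of which 849 (9.15%) had an unadjusted p under 0.05, 413 higher (4.45%) and 436 lower (4.7%). Of 37 tested genes of mitosis and the G2 phase, 11 were lower at that limit and 0 higher, which is 29.7%. Of 37 tested genes of the G1 to S transition and replication, 12 were lower and 0 higher, which is 32.4%. Values of 24 h lay wholly below those of 12 h for 10 mitotic and 6 replication genes and wholly above for 0 and 1. Over all genes they did so for 336 genes (3.62%), 162 below (1.75%) and 174 above (1.88%). The median difference was -0.16 for mitotic genes and -0.17 for replication genes, against 0.01 over all genes. Within Cy5 arrays the medians were -0.24 and -0.20, and within Cy3 arrays -0.14 and -0.21. Without turning the Cy3 arrays the counts of genes lower were 3 mitotic and 1 replication genes, with medians of -0.04 and 0.04. Quantile normalization left 7 replication genes lower. Over all probes, higher or lower, 1397 had an unadjusted p under 0.05 without turning and 1340 with quantile normalization, against 1691 in the main fit.

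**Figure D1:**
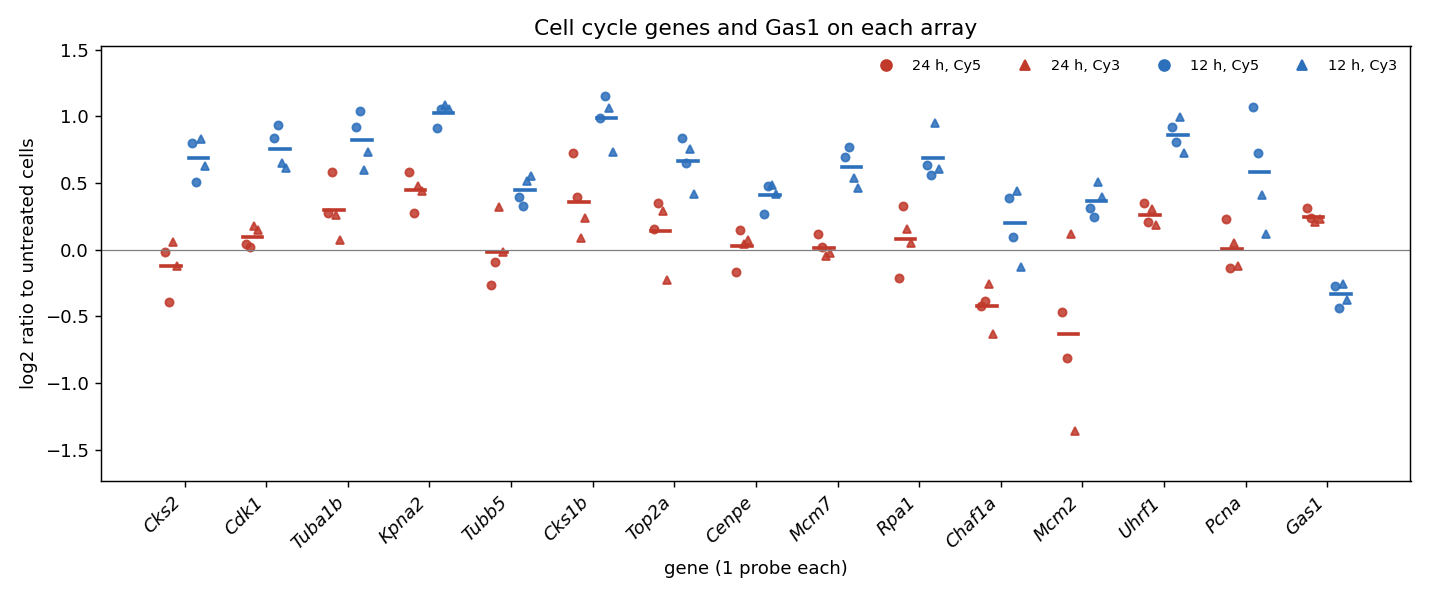
Log2 ratio to untreated cells of 14 genes lower at 24 h and of Gas1 on each of the 8 arrays, 24 h (red) left of 12 h (blue). Circles are Cy5 and triangles Cy3 arrays, with a bar for the mean of 4 arrays. The 14 are cell cycle genes except Kpna2, which belongs to neither list. They were picked for low p-values or after their values were seen. The 10 replication and 11 mitotic genes with a difference above 0 are not shown. The 24 h points of Cdk1 lie between 0.02 and 0.17, all below those of 12 h, and those of Gas1 lie between 0.20 and 0.31, all above those of 12 h.

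The promoters of 4 genes are shown because their genes carry the cell cycle pattern and stand for its waves: Cdk1, Cks2 and Top2a for mitosis and Mcm7 for replication. Each is the window of 250 bases before to 50 after the gene start on the gene's strand, from RefSeq with build GRCm38.p6. The positions are chr10:69352863-69353162 (minus strand) for Cdk1, chr13:51644982-51645281 (plus strand) for Cks2, chr11:99024140-99024439 (minus strand) for Top2a and chr5:138171834-138172133 (minus strand) for Mcm7, the first of 2 windows listed for that gene. Capitals mark 3 kinds of short motif found on either strand: the cell cycle homology element TTTGAA, the CCAAT box, and the E2F forms TTTCCCGC, TTTGGCGC and TTTCGCGC.
Cdk1: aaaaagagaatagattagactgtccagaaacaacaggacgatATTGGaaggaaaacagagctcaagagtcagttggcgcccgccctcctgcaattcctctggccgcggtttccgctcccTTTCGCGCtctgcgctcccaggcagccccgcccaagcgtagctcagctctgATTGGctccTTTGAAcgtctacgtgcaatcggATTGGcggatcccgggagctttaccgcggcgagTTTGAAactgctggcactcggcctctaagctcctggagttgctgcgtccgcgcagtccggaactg
Cks2: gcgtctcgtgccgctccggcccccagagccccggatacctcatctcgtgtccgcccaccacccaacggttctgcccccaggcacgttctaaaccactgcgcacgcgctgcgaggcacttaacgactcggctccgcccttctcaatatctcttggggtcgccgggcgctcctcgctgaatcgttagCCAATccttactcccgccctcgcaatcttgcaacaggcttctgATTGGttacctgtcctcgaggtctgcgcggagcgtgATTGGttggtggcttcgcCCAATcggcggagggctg
Top2a: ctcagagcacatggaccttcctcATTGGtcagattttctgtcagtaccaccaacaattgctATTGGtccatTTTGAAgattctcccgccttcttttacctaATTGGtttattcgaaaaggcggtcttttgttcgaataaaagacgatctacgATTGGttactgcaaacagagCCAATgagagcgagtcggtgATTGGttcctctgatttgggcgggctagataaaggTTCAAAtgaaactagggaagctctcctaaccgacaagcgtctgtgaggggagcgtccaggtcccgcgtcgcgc
Mcm7: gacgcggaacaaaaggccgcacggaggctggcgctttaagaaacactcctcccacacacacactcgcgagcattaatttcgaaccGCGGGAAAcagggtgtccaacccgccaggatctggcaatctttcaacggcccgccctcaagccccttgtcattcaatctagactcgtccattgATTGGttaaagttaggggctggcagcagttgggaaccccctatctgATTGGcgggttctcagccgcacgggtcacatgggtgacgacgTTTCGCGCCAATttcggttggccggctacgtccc

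The Cdk1 window held 2 TTTGAA, 3 CCAAT and 1 E2F match. Cks2 held 4 CCAAT matches only, Top2a held 6 CCAAT and 2 TTTGAA matches and Mcm7 held 3 CCAAT and 2 E2F matches, with an overlap of 1 E2F and 1 CCAAT match. In the 29 windows found for the 37 mitotic genes, TTTGAA occurred in 65.5%, CCAAT in 79.3% and an E2F form in 10.3%. In the 33 windows of the 37 replication genes the shares were 15.2%, 54.5% and 27.3%. Over the windows of all 27025 genes they were 18.1%, 37.9% and 1.91%. Among the mitotic genes lower at an unadjusted p under 0.05, TTTGAA was in 55.6% of 9 windows, CCAAT in 88.9% and an E2F form in 22.2%. Among the replication genes lower at that limit the shares were 9.09%, 90.9% and 27.3% of 11 windows. A match is a description of letters in a window and shows no binding.

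Among the kinases and their partners, Cdk1, the kinase that drives entry into mitosis, had log2 ratios to untreated cells of 0.05, 0.02, 0.17 and 0.15 at 24 h, against 0.83, 0.93, 0.65 and 0.61 at 12 h. All 24 h arrays lay near the untreated level and below all 12 h arrays. The means were 0.10 ± 0.08 at 24 h and 0.76 ± 0.15 at 12 h (SD, n = 4 each), a difference of -0.66 (limma, SE 0.12, adjusted p = 0.0542), or 1.58-fold lower. The exact permutation test over the 8 arrays gave p = 0.0286, the smallest that 4 against 4 arrays allow. Cdk1, like Mcm7 and Gas1 below, was picked for a low limma p on these arrays, so its permutation p is no separate support. Of all probes 3.73% had groups without overlap. At 1, 2 and 4 h Cdk1 averaged 0.51, 0.58 and 0.68, close to the 12 h mean. Cks2, a small subunit that binds cyclin-dependent kinases, had values of -0.02, -0.39, 0.05 and -0.12 at 24 h, against 0.80, 0.51, 0.83 and 0.63 at 12 h. The groups did not overlap, with a difference of -0.81 (SE 0.14, adjusted p = 0.0542, limma). Its paralog Cks1b, which also takes part in the destruction of the inhibitor p27, had 0.73, 0.39, 0.09 and 0.24 at 24 h, against 0.99, 1.15, 1.06 and 0.73 at 12 h. The highest 24 h array lay just below the lowest 12 h array, and the difference was -0.62 (SE 0.17, adjusted p = 0.22, limma). The G1 kinase Cdk4 averaged 0.24 ± 0.17 at 24 h and 0.52 ± 0.14 at 12 h (SD, n = 4 each), with overlapping arrays.

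Among genes of the spindle and chromosomes, Tuba1b, an alpha-tubulin of the microtubule, had 0.27, 0.58, 0.26 and 0.07 at 24 h, against 0.92, 1.04, 0.60 and 0.73 at 12 h. The groups touched at 0.58 and 0.60 without overlap, and the difference was -0.53 (SE 0.09, adjusted p = 0.0542, limma). The beta-tubulin Tubb5 averaged -0.02 ± 0.25 at 24 h and 0.45 ± 0.11 at 12 h (SD, n = 4 each). Top2a, the topoisomerase that untangles replicated chromosomes, had 0.16, 0.35, 0.29 and -0.23 at 24 h, against 0.84, 0.65, 0.75 and 0.42 at 12 h, again without overlap. The difference was -0.52 (SE 0.16, adjusted p = 0.284, limma). Cenpe, a kinetochore motor, averaged 0.03 ± 0.13 at 24 h and 0.41 ± 0.10 at 12 h, and Prc1, which bundles microtubules in the central spindle, 0.02 ± 0.08 and 0.26 ± 0.16 (SD, n = 4 each). Neither pair of groups overlapped. The condensin subunits Ncapg and Smc4 differed by -0.33 and -0.36, Smc4 with -0.02 on 24 h replicate 3 apart from 0.15 to 0.17 on the others, and Incenp, the scaffold of the Aurora B complex, by -0.59 on 1 probe and -0.25 over its 3 probes. Tubb5, Top2a, Cenpe, Prc1, Ncapg, Smc4, Incenp, Cks1b and Cdk4 were named after their values were seen. Kpna2, an importin that carries cargo into the nucleus and belongs to neither list, had 0.58, 0.28, 0.47 and 0.44 at 24 h, against 0.91, 1.05, 1.09 and 1.06 at 12 h. It was 1.50-fold lower without overlap (difference -0.58, SE 0.11, adjusted p = 0.057, limma).

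Among replication genes, Mcm7, a subunit of the helicase loaded at origins, had 0.12, 0.02, -0.05 and -0.02 at 24 h, against 0.69, 0.77, 0.54 and 0.46 at 12 h. The 24 h arrays lay at the untreated level, and the difference was -0.60 (SE 0.13, adjusted p = 0.134, limma), or 1.52-fold lower, with an exact permutation p = 0.0286. Mcm2, another subunit, had -0.47, -0.81, 0.12 and -1.36 at 24 h, against 0.31, 0.25, 0.50 and 0.39 at 12 h. It was lower on every 24 h array, but its 24 h values were widely spread (SD 0.62, against 0.11 at 12 h). Mcm4, Mcm5 and Mcm6 differed by -0.57, -0.41 and -0.45, each with overlapping arrays, and 12 h replicate 4 of Mcm5 stood at 0.07, against 0.40 to 0.46 on the others. Rpa1, which coats single-stranded DNA, had -0.21, 0.33, 0.16 and 0.05 at 24 h, against 0.64, 0.56, 0.95 and 0.61 at 12 h. Chaf1a, a subunit of the histone chaperone that rebuilds chromatin behind the fork, had -0.42, -0.39, -0.26 and -0.63 at 24 h, against 0.39, 0.10, 0.44 and -0.13 at 12 h. Neither gene's groups overlapped, and the adjusted p was 0.176 for Rpa1 and 0.189 for Chaf1a (limma). Uhrf1, which guides maintenance of DNA methylation after replication, averaged 0.26 ± 0.08 at 24 h and 0.86 ± 0.12 at 12 h, and Pcna, the sliding clamp, 0.01 ± 0.17 and 0.58 ± 0.41 (SD, n = 4 each). The Uhrf1 groups did not overlap, while the Pcna groups did, since the lowest 12 h array stood at 0.12. The origin recognition subunit Orc6 differed by -0.47, and the clamp loader subunit Rfc1 by -2.08 with 3 values at 12 h as far apart as -0.61 and 2.69. The differences of the 37 replication genes ran up to 1.40 for E2f1, one of the E2F factors, whose 12 h values ran from -3.16 to 1.01 (adjusted p = 0.639, limma). The direction of E2f1 was -0.74 within Cy5 arrays and 3.53 within Cy3 arrays. The Mcm subunits other than Mcm7, Uhrf1, Pcna, Orc6, Rfc1 and E2f1 were named after their values were seen.

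Array by array, the medians of both lists separated the times. The median mitotic gene stood at 0.08, 0.15, 0.07 and 0.06 on the 24 h arrays, against 0.26, 0.34, 0.25 and 0.18 on the 12 h arrays. The median replication gene stood at -0.04, 0.03, 0.14 and 0.05 at 24 h, against 0.29, 0.19, 0.25 and 0.19 at 12 h. Every 24 h array lay below every 12 h array for both lists. Of the 25 lists, the only others whose medians separated the times were oxidative phosphorylation and the ERK targets. The lists were chosen with earlier results of these data known. Earlier arrays, of 1 to 4 h, ran from 0.16 to 0.30 for mitotic genes and from 0.10 to 0.34 for replication genes. The 24 h arrays lay below that range for mitotic genes, and for replication genes 3 of the 4 did.

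**Figure D2:**
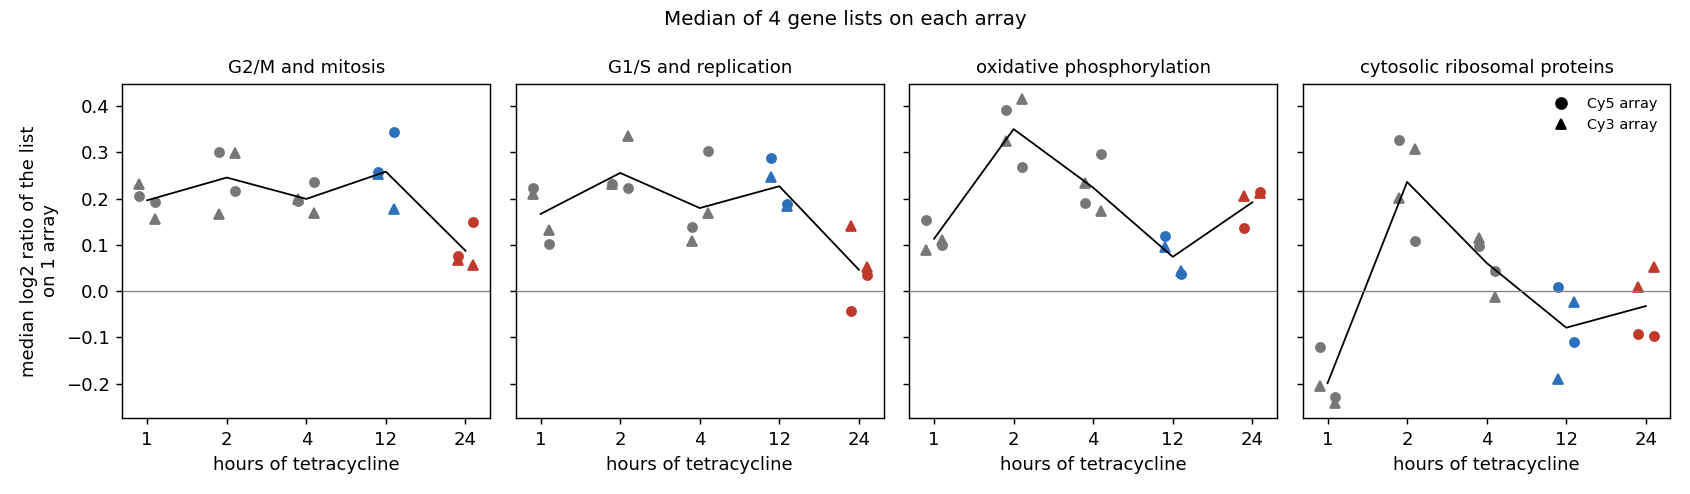
Median log2 ratio of a gene list on each array (points, 4 per time) against hours of tetracycline, with the line through the mean of the 4 medians; circles are Cy5 and triangles Cy3 arrays. For mitotic and replication genes the 24 h arrays (red) lie below all 12 h arrays (blue), for oxidative phosphorylation they lie above, and for ribosomal proteins they overlap.

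Gas1, a membrane protein named for its expression in growth-arrested fibroblasts, stood in the opposite direction. It had 0.31, 0.23, 0.20 and 0.23 at 24 h, against -0.28, -0.43, -0.25 and -0.38 at 12 h. All 24 h arrays were above the untreated level and all 12 h arrays below it. The means were 0.25 ± 0.05 at 24 h and -0.34 ± 0.09 at 12 h (SD, n = 4 each), a difference of 0.58 (SE 0.10, adjusted p = 0.0542, limma), or 1.50-fold higher, with an exact permutation p = 0.0286. At 1, 2 and 4 h it averaged -0.95, -0.36 and -0.28, so the 24 h mean was the only one of the 5 above 0. Btg1, an antiproliferative gene, had 0.25, 0.37, 0.16 and 0.40 at 24 h, against -0.45, -0.75, 0.20 and -0.15 at 12 h. Its groups overlapped, and the difference of 0.58 was 0.91 within Cy5 and 0.25 within Cy3 arrays (adjusted p = 0.209, limma). Of 22 tested genes of growth arrest and the p53 response, these 2 were higher at an unadjusted p under 0.05 and 0 were lower, which is 9.09%, near the 9.15% of all genes, with a list median of 0.05.

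Egr1, the zinc finger factor that ERK signalling induces within minutes, had log2 ratios of -4.24, -3.14, -3.60 and -3.72 at 24 h, against -1.82, -2.35, -3.07 and -3.00 at 12 h. It was far below the untreated level on all 8 arrays, and every 24 h array was below every 12 h array. The means were -3.67 ± 0.45 at 24 h and -2.56 ± 0.59 at 12 h (SD, n = 4 each), a difference of -1.11 (SE 0.24, adjusted p = 0.136, limma), or 2.16-fold lower. The difference was -1.61 within Cy5 arrays and -0.62 within Cy3 arrays, and a test of the dyes against each other gave an adjusted p = 0.519 (limma). At 1, 2 and 4 h Egr1 averaged -0.55, -2.60 and -3.25, so the 12 h mean stood above those of 4 and 24 h. Zfp36, an RNA-binding protein of the same class of immediate early genes that destabilises AU-rich messages, averaged -0.05 ± 0.15 at 24 h and -0.35 ± 0.14 at 12 h (SD, n = 4 each). Of 21 tested immediate early genes 2 were higher and 1 lower at an unadjusted p under 0.05 (14.3%, against 9.15% of all genes). The list median was 0.01. The 2 higher were Zfp36 and Btg1, and Btg1 was counted among the growth arrest genes too. None of 5 tested ERK targets and feedback inhibitors and none of 13 tested ERBB receptors and adaptors was past that limit, with medians of -0.11 and 0.00. The median ERK target stood at -0.12, -0.08, -0.26 and -0.08 on the 24 h arrays, against -0.02, -0.05, -0.05 and -0.01 on the 12 h arrays, so every 24 h array lay below every 12 h array, over at most 6 genes.

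Genes linked to fibroblast transformation and motility lay in both directions. S100a4, a calcium-binding protein tied to motility and metastasis, had 1.41, 1.41, 1.48 and 1.46 at 24 h, against 0.81, 0.72, 0.71 and 1.18 at 12 h. It was above the untreated level on all 8 arrays, and highest on the 24 h arrays without overlap. The difference was 0.58 (SE 0.13, adjusted p = 0.139, limma), or 1.50-fold higher, and it was 0.64 within Cy5 and 0.52 within Cy3 arrays. Its relatives S100a6 and S100a11 were higher by 0.50 and 0.49, S100a6 with 0.98 ± 0.26 at 24 h and 0.48 ± 0.21 at 12 h, and S100a11 with 0.73 ± 0.19 and 0.24 ± 0.28 (SD, n = 4 each). The groups overlapped for S100a6 and did not for S100a11, which was named after its values were seen. Vim, the intermediate filament vimentin, had 0.06, 0.07, 0.23 and 0.18 at 24 h, against -0.28, -0.31, -0.21 and -0.04 at 12 h, without overlap. Its difference was 0.35 on this probe and 0.38 on its other probe (adjusted p = 0.139 and 0.212, limma). The surface protein Tm4sf1 had 0.23, 0.01, 0.42 and 0.24 at 24 h, against 0.80, 0.52, 1.20 and 0.55 at 12 h, and was 1.46-fold lower without overlap (difference -0.55, adjusted p = 0.176, limma). Ctsl, the secreted lysosomal protease cathepsin L of transformed fibroblasts, averaged 0.53 ± 0.11 at 24 h and 0.85 ± 0.09 at 12 h (SD, n = 4 each), also without overlap. Of 17 tested genes of this list 3 were higher and 2 lower at an unadjusted p under 0.05, which is 29.4% against 9.15% of all genes, with a median of 0.13.

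**Figure D3:**
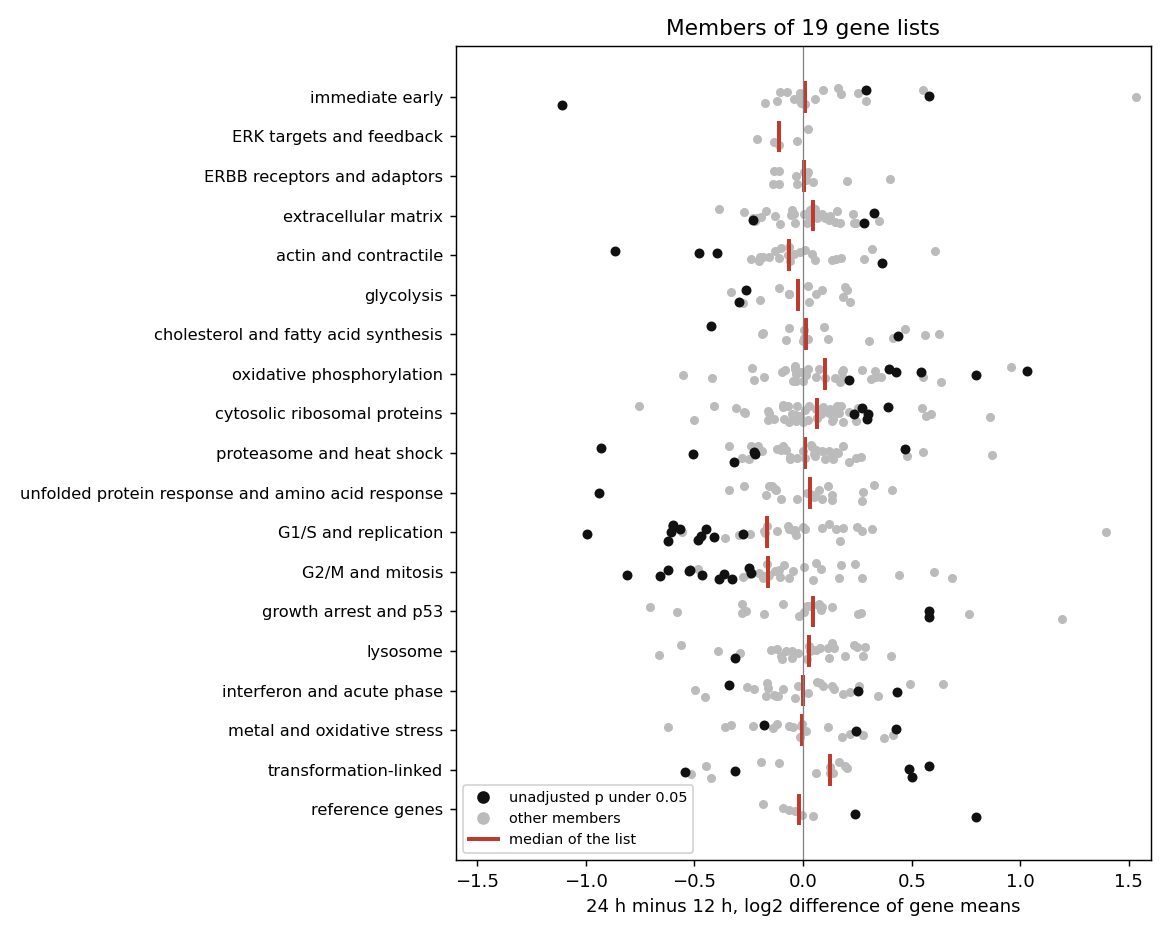
Difference of gene means, 24 h minus 12 h on the log2 scale, for the members of 19 gene lists (points; black where the unadjusted p was under 0.05), with a red bar at the median of each list; 4 points lie beyond the axis. The medians of the replication and mitosis lists lie at -0.17 and -0.16, and all their black points lie below 0.

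Of 39 tested genes of oxidative phosphorylation 6 were higher, 1 lower and 32 neither at an unadjusted p under 0.05, which is 17.9% against 9.15% of all genes. The median difference was 0.10, with 24 genes above 0 and 15 below. Without turning the Cy3 arrays 1 gene was higher and the median was -0.02. Over all probes, higher or lower, 1397 were past that limit in the unturned fit, against 1691 in the main fit. The median gene of the list stood at 0.14, 0.22, 0.21 and 0.21 on the 24 h arrays, against 0.12, 0.04, 0.10 and 0.04 on the 12 h arrays, so that every 24 h array lay above every 12 h array. Sdha, the flavoprotein of complex II, had 0.73, 0.24, 0.86 and 0.97 at 24 h, against 0.16, -0.73, 0.22 and -0.05 at 12 h, without overlap (difference 0.80, adjusted p = 0.182, limma). Ndufs3 of complex I averaged 0.67 ± 0.63 at 24 h and -0.36 ± 0.31 at 12 h, and Uqcrc2 of complex III 0.52 ± 0.23 and -0.02 ± 0.27 (SD, n = 4 each). Dlst, a subunit of the 2-oxoglutarate dehydrogenase complex of the citric acid cycle, had 0.53, 1.32, 1.00 and 1.44 at 24 h, against -0.07, -0.51, 0.11 and -0.14 at 12 h. The groups of Dlst did not overlap (difference 1.23, SE 0.21, adjusted p = 0.0542, limma), but another Dlst probe differed by 0.15 (SE 0.20).

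Ribosomal protein genes, 56 tested, had a median of 0.06, with 5 higher and 0 lower at an unadjusted p under 0.05 (8.93%), a share near that of all genes. Rpl26 of the large subunit averaged 0.50 ± 0.18 at 24 h and 0.27 ± 0.19 at 12 h (SD, n = 4 each), with overlapping arrays. Chaperone and proteasome genes lay in both directions. Hsp90aa1, an HSP90 chaperone of kinase clients, had -0.37, -0.12, -0.17 and -0.04 at 24 h, against 0.34, 0.31, 0.21 and 0.83 at 12 h, without overlap (difference -0.60, adjusted p = 0.182, limma), but its other probe differed by 0.12. The mitochondrial chaperonin Hspd1 averaged -0.15 ± 0.24 at 24 h and 0.40 ± 0.30 at 12 h (SD, n = 4 each), and its other probe differed by -0.08. The proteasome subunit Psma1 had 0.63, 0.77, 0.80 and 0.86 at 24 h, against 0.39, 0.40, 0.18 and 0.21 at 12 h, without overlap (difference 0.47, adjusted p = 0.225, limma). Of 41 tested genes of the proteasome and heat shock response 1 was higher and 5 lower at an unadjusted p under 0.05, which is 14.6% against 9.15% of all genes, with a median of 0.01.

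The other lists held 0 to 4 genes past that limit, against 9.15% of all genes. Matrix genes, 37 tested, had 2 higher and 1 lower (8.11%). Fibronectin (Fn1), the lower one, averaged -0.35 ± 0.08 at 24 h and 0.02 ± 0.20 at 12 h (SD, n = 4 each) on 1 probe, and the mean of its 5 probes differed by -0.23 (adjusted p = 0.346, limma). Lox, which cross-links collagen, averaged -0.36 ± 0.28 at 24 h and -0.68 ± 0.33 at 12 h (SD, n = 4 each) on 1 probe, and its other probes differed by 0.35 and 0.16. The first probe had 0.05 on 24 h replicate 1, apart from -0.53 to -0.46 on the other 24 h arrays. At 1, 2 and 4 h that probe averaged -1.54, -1.15 and -0.89. Hmgcs1, an early enzyme of cholesterol synthesis, had 0.49, 0.72, 0.83 and 0.68 at 24 h, against -0.06, -0.43, -0.32 and 0.24 at 12 h, without overlap, but its other probe differed by 0.05. Of 18 tested genes of cholesterol and fatty acid synthesis 1 was higher and 2 lower (16.7%). The counts were 1 higher and 3 lower of 26 actin and contractile genes (15.4%), 0 and 2 of 16 glycolytic genes (12.5%), 0 and 1 of 23 genes of the unfolded protein and amino acid responses (4.35%), and 0 and 1 of 29 lysosomal genes (3.45%). They were 2 and 1 of 28 interferon and acute phase genes (10.7%) and 2 and 1 of 23 metal and oxidative stress genes (13%). Lcn2, a siderophore-binding acute phase protein, averaged 0.56 ± 0.69 at 24 h and -0.40 ± 0.26 at 12 h (SD, n = 4 each), and its other probe differed by -0.20. Of 8 tested genes in common use as references 2 were higher (25%), Sdha and Ppia, a cyclophilin with 0.80 ± 0.05 at 24 h and 0.56 ± 0.11 at 12 h (SD, n = 4 each).

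The remaining genes named by rule belonged to no single group, and several rest on 1 of their probes. Among those lower, Slc7a5, the transporter of large neutral amino acids, had -2.01, -1.27, -0.37 and -0.78 at 24 h, against -0.05, 1.60, 1.18 and 1.46 at 12 h. It was 4.45-fold lower without overlap (difference -2.16, SE 0.36, adjusted p = 0.0542, limma). Ackr2, a receptor that takes up chemokines without signalling, had -0.59, -0.46, -0.59 and -0.38 at 24 h, against 0.09, 0.01, 0.12 and 0.16 at 12 h. Its 12 h arrays lay near the untreated level, and the difference was -0.60 (SE 0.11, adjusted p = 0.063, limma). Pkp4, a plakophilin of cell junctions, averaged -0.37 ± 0.16 at 24 h and 0.84 ± 0.40 at 12 h (SD, n = 4 each), and its difference of -1.21 had an adjusted p = 0.0542 (limma) that became 0.0493 with quantile normalization. The other Pkp4 probe differed by -0.14. The ubiquitin ligase Trip12 differed by -1.31 and by 0.22 on its other probe, and the ARF regulator Asap2 by -1.56, -2.19, -0.18, 0.15 and 0.18 on 5 probes. Cck, the cholecystokinin gene, differed by -1.91 with 3 values at each time. Its values were -0.31, -0.23 and 0.54 at 24 h, against 1.04, 2.06 and 2.63 at 12 h.

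Among those higher, Cp, the copper ferroxidase ceruloplasmin, had 0.29, 0.07, 0.35 and 0.33 at 24 h, against -0.41, -0.67, -0.46 and -0.63 at 12 h, a difference of 0.80 (SE 0.15, adjusted p = 0.0775, limma). Its other probe differed by -0.29. Kat6a, a histone acetyltransferase, differed by 1.61 (adjusted p = 0.0542, limma) and by 0.24 and 0.10 on its other probes. Arhgap25 differed by 1.30 and 0.39 on 2 probes. Recql, a DNA helicase, differed by 2.15, -1.63 and -0.28 on 3 probes. These disagree in sign. Cmas, which activates sialic acid, differed by 0.77 and -0.04, and the tRNA methyltransferase Trmt10a by 0.46, -0.37, 0.43 and 0.02. C2cd5, a C2 domain protein, differed by 0.49, -0.14 and 0.04, with 12 h replicate 3 far below the others at -0.58. Nat10, an acetyltransferase of RNA, differed by 2.70 with 24 h values from -0.30 to 2.57. Tmem131 and Dnajc5g differed by 1.05 and 1.91, Dnajc5g with 3 values at each time. Kat6a and Asap2 had 3 values at 24 h, and Arhgap25, Recql and Nat10 had 3 at 12 h. With a dye effect for each time, limma called Cdk1 (adjusted p = 0.0449), Cks2 (0.0382), Mcm7 (0.0382), Kpna2 (0.0339), Gas1 (0.0339), Dlst (0.0386), Slc7a5 (0.0453), Pkp4 (0.0279), Kat6a (0.0339), Arhgap25 (0.0386) and Recql (0.0167). The lowest adjusted p of that fit was that of Fam205c (difference 2.81, adjusted p = 0.00133). Acaa1a, Pamr1, Ripor2, Nfic, Uhrf1bp1l and Camkv were also called as lower, Fgf14 and Llph as higher, and the other calls were probes with no listed gene.

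Within a dye the probe's own dye bias cancels, so the contrast was also tested in each. Within the Cy5 arrays limma called 2 of 17332 probes (0.0115%), and 1348 (7.78%) had an unadjusted p under 0.05. Lman2l, a lectin of the secretory pathway, was higher by 2.88 and Adam32, of the ADAM family, lower with -2.16 (adjusted p = 0.0495 each). Within the Cy3 arrays 3 of 17715 probes (0.0169%) were called (1824, or 10.3%, at an unadjusted p under 0.05), all lower: Acaa1a, a peroxisomal thiolase (-3.59), Pard6b, a polarity protein (-2.36), and Flad1, which makes FAD (-3.91). None of the 5 passed with both dyes together and 1 shared dye effect, while Acaa1a passed with a dye effect for each time (-1.74, adjusted p = 0.0167). A test of the difference between the dyes called 3 of 16607 probes (0.0181%, with 1471 or 8.86% at an unadjusted p under 0.05), Acaa1a, Flad1 and a probe with no listed gene. Over all genes the within-Cy5 and within-Cy3 differences had a Pearson r of -0.003 and a Spearman rank correlation of 0.007, a description across genes, which are not independent replicates. Arrays of the same time and dye had Spearman rank correlations of 0.11 to 0.21, and arrays of the same time in opposite dyes, after turning, of -0.07 to 0.07. Where a gene has several probes, the differences of 2 of its probes had a Spearman rank correlation of 0.02. With the gene names shifted by 1 to 3 rows it ran from -0.04 to 0.03. For the 24 h values alone it was 0.05, against -0.03 to 0.03 with shifted names. For the 12 h values alone it was 0.04, against -0.04 to 0.03. A difference named from 1 probe is thus that probe's own value. Of 37 tested mitotic genes 19 were below 0 in both dyes and 2 above 0 in both. Of 37 replication genes 19 were below and 4 above, and of all 9276 genes 2250 were below and 2432 above.

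**Figure D4:**
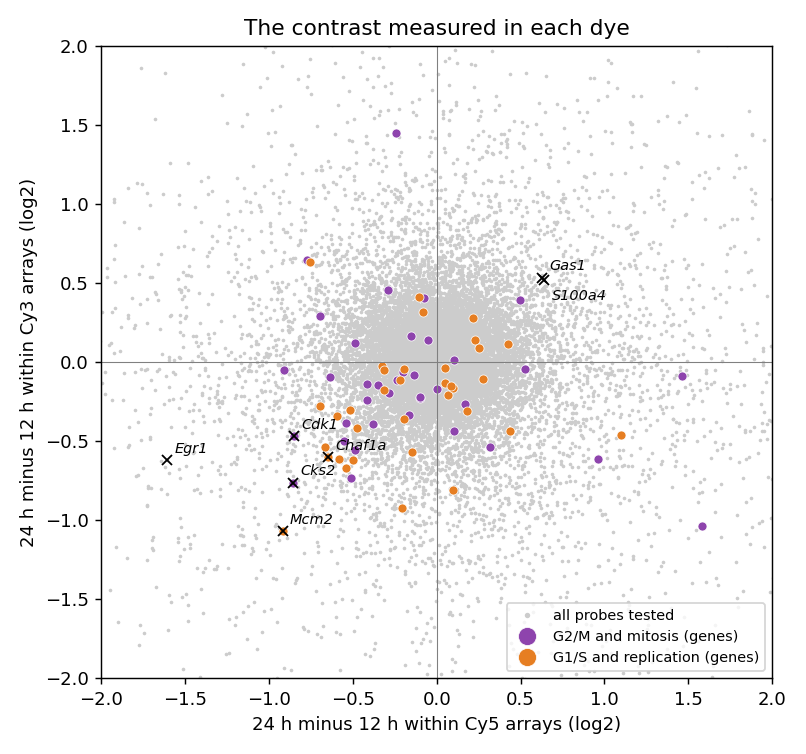
The 24 h minus 12 h log2 difference within Cy3 arrays against that within Cy5 arrays for all probes (grey), mitotic genes (purple) and replication genes (orange), with 7 genes marked by crosses; 823 probes lie beyond the axes. The grey cloud has no slope (Pearson r -0.003 over genes). Cdk1, Cks2, Chaf1a, Mcm2 and Egr1 lie below 0 in both dyes, Gas1 and S100a4 above. Cdk1, Cks2, Egr1 and Gas1 met a naming rule that requires the same sign in both dyes, so their shared sign is no separate support. Chaf1a and S100a4 were picked for low p-values on these arrays, and Mcm2 after its values were seen.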

How the data were processed

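Total RNA was measured on dual-colour cDNA arrays. The values deposited by the authors are log2 ratios of the 2 channels in 1 table. Software, background correction, normalization and numerator are not given in the sources used here. Values above 12 on the log2 scale were dropped as a ceiling, each array was centred on its median and Cy3 arrays were multiplied by -1. Of 20355 probes 14030 have 1 gene symbol, 5 several and 6320 none listed, and 13994 Entrez IDs were found in the RefSeq table.

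The contrast was fitted with limma 3.58.1 in R 4.3.3 (lmFit, eBayes) over the 20 arrays of 1 to 24 h, with a mean per time, a dye effect per probe and at least 3 values in each group (2 within a dye). Steps were tested on simulated data. No pair of arrays held the same values (highest Pearson r 0.07), and 82 of 88 row blocks of the 8 arrays correlated best with the other arrays at no shift. The members and the 25 gene lists were chosen with earlier results of these data known. Named genes were those called, filled to 12 in each direction by the lowest p with 1 sign in both dyes, plus Egr1 and up to 3 genes of lowest p per list; others are marked. Alternatives changed the turning, centring, scaling, ceiling, filter, arrays, dye effect, block and weights, and left out each replicate.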

Additional observations from a re-analysis of the deposited data

Results flagged for a closer look

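In 4 of the 64 genes followed above, 1 array stood far from the other 3 of its group on the log2 scale, by Dixon's test. That test flags about 1 in 20 groups by chance. With a group at each time for every gene, 4 flags are no more than that rate gives. C2cd5 was -0.58 on 12 h replicate 3, against -0.21 to -0.16 on the others. Mcm5 was 0.07 on 12 h replicate 4, against 0.40 to 0.46. Smc4 was -0.018 on 24 h replicate 3, against 0.15 to 0.17. Lox was 0.052 on 24 h replicate 1, against -0.53 to -0.46.

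The contrast differed between the dyes for 3 probes, by limma's test of Cy5 minus Cy3. Flad1 differed by 6.05 (adjusted p = 0.00976): it averaged -0.06 at 24 h and -2.20 at 12 h on Cy5 arrays, and -0.52 at 24 h and 3.39 at 12 h on Cy3 arrays after turning. Acaa1a differed by 3.72 (adjusted p = 0.00976), with -0.01 at 24 h and -0.13 at 12 h on Cy5 arrays, and -3.46 at 24 h and 0.14 at 12 h on Cy3 arrays. Probe 12775, with no listed gene, differed by -2.21 (adjusted p = 0.0215), with -0.56 at 24 h and 0.16 at 12 h on Cy5 arrays, and 1.33 at 24 h and -0.16 at 12 h on Cy3 arrays. Each mean is of 2 arrays, and the cause was not tested.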

How the results depend on the processing

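The count of 0 called probes became 1 without turning the Cy3 arrays (Pcare), 1 with quantile normalization (Pkp4), 36 with a dye effect for each time and 23 at an adjusted p under 0.10, a limit chosen after seeing the data. Leaving out 1 replicate gave 0 to 10 calls: 10 and 5 without 24 h replicates 1 and 2, 3, 1 and 2 without 12 h replicates 1, 2 and 4, and 0 without 24 h replicates 3 and 4 and 12 h replicate 3. The other alternatives gave 0, but their counts at an unadjusted p under 0.05 varied, against 1691 probes in the main fit. They were 729 with the 3 day arrays added, 1138 in the 8 arrays alone and 1108 without centring. With array weights the count was 1181, and with at least 2 values in each group 1819. The list shares above are those of the main fit. With the replicate number as a block 0 probes were called (1665 at an unadjusted p under 0.05), and 0 in the 8 arrays alone (1093); same-numbered arrays correlated at 0.007 to 0.077 in their deviations, so the numbers were not taken to pair the samples. Without the other times, the 2 calls within Cy5, 3 within Cy3 and 3 between dyes were 0, 0 and 0. Genes lower at an unadjusted p under 0.05 (alternatives chosen after seeing the data) numbered 12 for replication, 1 without turning, 7 with quantile normalization and 8 to 13 with 1 replicate left out, and 11 for mitosis, 3 without turning and 8 to 10 with 1 replicate left out. Oxidative phosphorylation genes higher at that limit numbered 6, 1 without turning and 5 to 8 with 1 replicate left out. Over all probes, higher or lower, 1397 were past that limit without turning and 1340 with quantile normalization. With 1 replicate left out the count ran from 1544 to 1813. The 64 named genes were chosen on these same arrays, for low p-values or after their values were seen, which favours kept signs. All 482 of their differences with 1 replicate left out kept their sign, and 1045 of 1080 under other alternatives did. The 35 others, all without turning, were, in log2, Arhgap25 -0.69, Dlst -0.01, Dnajc5g -0.76, Recql -0.13, Cp -0.086, Cmas -0.072, Tmem131 -0.036, C2cd5 -0.026, S100a11 -0.21, Sdha -0.031, Ndufs3 -0.41, Psma1 -0.17, Lox -0.17, Ppia -0.092, Lcn2 -0.28, Rpl26 -0.004, E2f1 -2.13, Zfp36 -0.068 and, above 0, Pkp4 0.28, Kpna2 0.031, Ackr2 0.023, Cck 1.01, Rpa1 0.066, Mcm2 0.075, Uhrf1 0.015, Mcm4 0.36, Cdk4 0.083, Rfc1 1.47, Cks1b 0.11, Top2a 0.033, Cenpe 0.007, Incenp 0.20, Tm4sf1 0.002, Hsp90aa1 0.024, Ctsl 0.012. Many of the 64 genes were picked for 1 sign in both dyes after turning, and an unturned fit shrinks such differences by construction. No further cause was tested. After turning, S100a4 at 24 h had 1.41 and 1.41 on Cy5 arrays, and 1.48 and 1.46 on Cy3 arrays. Egr1 had -4.24 and -3.14, and -3.60 and -3.72. Unturned, these values have opposite signs in the 2 dyes. Arrays of the same time in opposite dyes had Spearman rank correlations of -0.07 to 0.07 after turning. Direction rests on the turning and on the assumed numerator, and 4 arrays a group limit the precision.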
